A study of Mus musculus with 6 samples.

Results

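The SLC25 proteins are the carriers that move metabolites across the inner mitochondrial membrane, and the transcripts of 40 of them were measured in sorted erythroid cells of control and Bcl11a knockout mice. Members were chosen by name alone: every gene whose probe sets carried a single annotation symbol made of Slc25a and a number, other than the iron and heme carriers Slc25a28, Slc25a37, Slc25a38 and Slc25a39. A member stood for its brightest probe set, the one with the highest mean log2(intensity + 16) over the 6 arrays. The 40 members are among 18193 genes represented in this way, and 85 probe sets read them in all. Of the members, 22 were read by more than 1 probe set and 18 by 1.

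The cells were CD71 and Ter119 double-positive erythroid progenitors, sorted from the bone marrow of female mice at 6 weeks of age, with 1 Affymetrix array for each mouse. The 3 control mice carried the intact gene (Bcl11a +/+). The 3 knockout mice carried floxed Bcl11a and a Cre driven from the erythropoietin receptor locus (Bcl11a fl/fl EpoR-Cre+), which deletes in the red cell lineage. The labels give Cre to the knockout mice alone, so its own effect and that of Bcl11a cannot be told apart, and they do not name strain backgrounds. The comparison asked which erythroid transcripts differ when this repressor of embryonic globin genes is lost.

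Carriers of the family share one fold, built from repeated pairs of membrane helices, and most exchange one small anion or zwitterion for another. They supply the matrix with phosphate, ADP, cofactors, nucleotides and amino acids and return ATP, citrate and other products to the cytosol. Red cell precursors need this traffic for heme synthesis, for one-carbon metabolism and for nucleotide supply during their last divisions, before they discard their mitochondria.

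Array medians lay between 67.5 and 70.9. The brightest Bcl11a probe set had intensities of 1475, 1553 and 1450 in the controls and 1286, 1419 and 1190 in the knockouts, a log2 difference of -0.20 ± 0.11 (SE, adjusted p = 0.502). The 7 probe sets of Bcl11a went both ways, from -0.40 to 0.32: all knockout values were lower in 4 and higher in 2, 1 overlapped, and none passed the test. The labels do not say where the probes lie relative to the deleted part, so these levels neither support nor contradict the labels. Erythroid markers were bright, and the intensities of 6 of them (the transferrin receptor Tfrc, Klf1, Gata1, Epor, Alas2 and Slc4a1) summed to between 60793 and 72569 in the controls and between 73168 and 79571 in the knockouts. Of these 6, Tfrc, Klf1, Gata1 and Slc4a1 were higher in every knockout mouse. Epor and Alas2 overlapped, with log2 changes of -0.14 and -0.06. Markers of other cells were present too. The 7 neutrophil markers summed to between 172880 and 173987 in the controls and between 159987 and 166864 in the knockouts, the 5 B cell markers to between 8431 and 10288 and between 6055 and 7714, and the 4 basophil and mast cell markers to between 5802 and 6174 and between 3727 and 5287. The 6 macrophage markers summed to between 8043 and 9165 in the controls and between 9166 and 9777 in the knockouts. Among them Csf1r alone had groups apart, at 3819 to 3948 against 4679 to 4785. Vpreb1 and Igll1 were lower in every knockout mouse, and the other 3 B cell markers overlapped. Mcpt8 and Ms4a2 were also lower in every knockout mouse, and Cpa3 and Fcer1a overlapped. The neutrophil markers Elane and Mpo overlapped, while the other 5 were lower in every knockout mouse. The 4 megakaryocyte and the 4 T and NK cell markers overlapped between the groups, at 1557 to 1958 against 1361 to 2350 and at 2668 to 3267 against 2730 to 3252. None of these markers passed the test. With an intensity trend and robust moderation in limma, Tfrc, Gata1, Vpreb1, Igll1, Csf1r and Mcpt8 passed, where 4.22% of all genes did. Their adjusted p in that fit ran from 0.00857 (Gata1) to 0.0493 (Mcpt8). The part of the markers in the carrier values was not tested. In bulk samples such as these, fewer cells of a type and less RNA per cell cannot be told apart.

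No carrier passed the test between knockout and control mice (limma across all 45037 probe sets, Benjamini-Hochberg adjustment, adjusted p threshold of 0.05). Over all 18193 genes 38 rose and 1 fell, which is 0.214% of them. At an unadjusted p under 0.05 there were 5 carriers, Slc25a4, Slc25a24, Slc25a35, Slc25a44 and Slc25a54, against 12.7% of all genes. The carriers' median log2 change was -0.04, with 15 above 0 and 25 below, beside a median of -0.0012 over all genes. Their changes ran from -0.40 for Slc25a54 to 0.61 for Slc25a48, both of them at intensities where signal cannot be told from background. Groups did not overlap in 10 carriers, 5 with all knockout values higher (12.3% of all genes) and 5 with all of them lower (9.23% of all genes).

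The fit also bounded the changes. In 22 of the 40 carriers the 95% interval of the log2 change of the brightest probe set lay wholly within 0.5 of 0, against 42.4% of all genes. Of the 15 among them with several probe sets, the other probe sets kept to this bound in 4, Slc25a5, Slc25a10, Slc25a24 and Slc25a46. At least 1 went beyond it in the other 11, as in Slc25a3 (-0.90 to -0.12) and Slc25a51 (0.03 to 0.85). The widest interval was that of Slc25a18, a dim member, from -1.10 to 0.74. The 3 Y-linked genes measured in these female mice had a highest mean intensity of 30.7, which was taken as a rough background level after the values were seen. The 7 members at or below it were Slc25a2, Slc25a18, Slc25a31, Slc25a34, Slc25a41, Slc25a48 and Slc25a54. Of the 33 members above it, 4 lay wholly higher and 4 wholly lower in the knockouts.

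**Figure D1:**
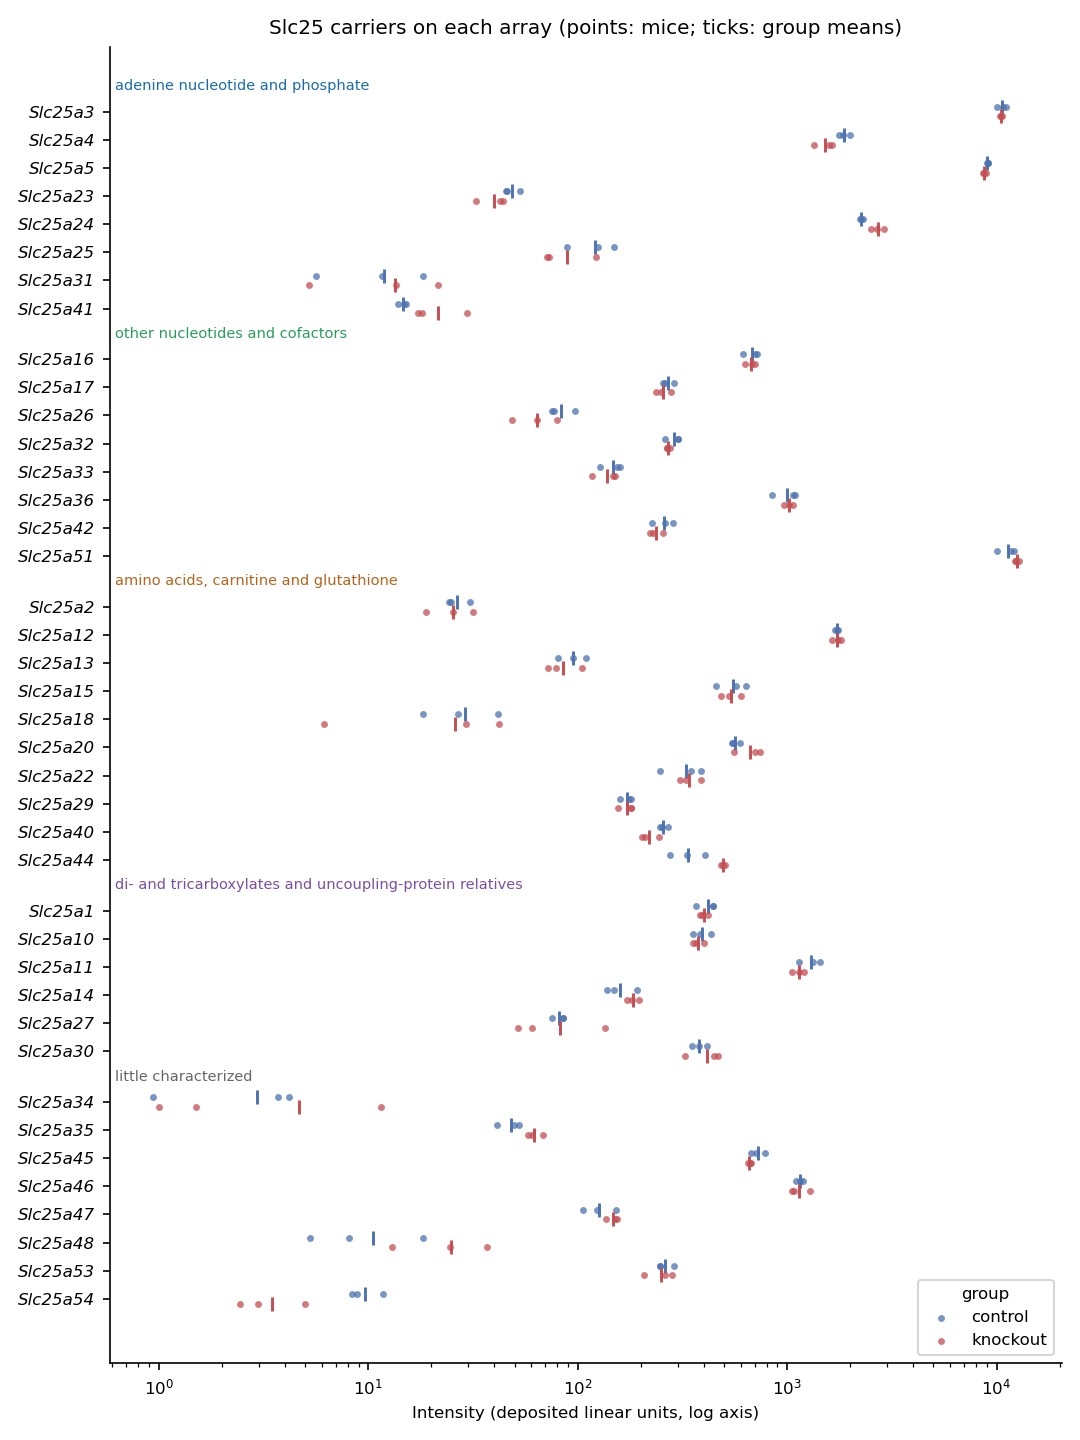
Intensity of the 40 carriers on each array (log axis, deposited linear units), grouped by what they carry; points are the 3 control and 3 knockout mice, and ticks are group means. Most carriers show overlapping points, while the knockout points of Slc25a44 (486 to 508) all lie right of the control points (276 to 404).

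Slc25a44, a carrier of branched-chain amino acids, had the largest difference among the carriers above background. Its intensities were 404, 276 and 331 in the controls and 486, 493 and 508 in the knockouts. The knockout values were higher and nearly equal, and the spread lay in the controls. The ratio of the means was 1.47 and the log2 change 0.55 ± 0.15 (SE, 95% interval 0.19 to 0.91, adjusted p = 0.244). A second, dimmer probe set had 224, 209 and 250 in the controls and 299, 350 and 334 in the knockouts, again without overlap and with a log2 change of 0.50 ± 0.12 (adjusted p = 0.208). The third, dimmest probe set overlapped, with a change of 0.30 ± 0.25. When limma moderated the variances with an intensity trend and robustly, the adjusted p of the brightest probe set was 0.0300 and that of the second 0.0340, and Slc25a44 was then the 1 carrier called, where 4.22% of all genes were. Its change lay between 0.42 and 0.68 on leaving out each mouse in turn, lowest without control mouse 2.

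Of the 8 carriers of adenine nucleotides and phosphate, 2 had all knockout values above and 3 all knockout values below the controls, and none passed. Over all genes the shares were 12.3% above and 9.23% below. The same shares stand beside the counts of the other groups of carriers below. Slc25a4, the ADP/ATP carrier typical of heart and muscle, had intensities of 1762, 2007 and 1848 in the controls and 1647, 1585 and 1338 in the knockouts. Every knockout value was lower, and knockout mouse 3 was lowest. The log2 change came to -0.30 ± 0.12 (SE, adjusted p = 0.394). All 4 of its probe sets had changes below 0, from -0.41 to -0.21, and the groups did not overlap in 2 of them. These 2 were the brightest and the dimmest, and the dimmest was at background, with group means of 27.2 and 16.4. The change of the brightest was -0.38 after quantile and -0.35 after cyclic loess normalization.

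Slc25a5, the ADP/ATP carrier of dividing cells, had close values in all 6 mice. Its brightest probe set gave 9057, 8970 and 9060 in the controls and 8719, 8894 and 8661 in the knockouts. These values did not overlap, and the ratio of the group means was 0.970. The 8 probe sets of Slc25a5 had log2 changes between -0.14 and 0.06, 6 below 0 and 2 above. In the brightest the change was -0.04 and the 95% interval ran from -0.26 to 0.17 (adjusted p = 0.886). That change was -0.14 after quantile and -0.14 after cyclic loess normalization. Slc25a5 has processed copies in the genome, and 6 of its 8 probe sets bear the suffix by which Affymetrix marks probes that may also match other sequences, so these values are uncertain as a measure of Slc25a5 alone.

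The phosphate carrier Slc25a3, which feeds ATP synthase, had 11113, 10108 and 10769 in the controls and 10483, 10606 and 10406 in the knockouts. The groups overlapped, and the log2 change of -0.02 had a 95% interval from -0.25 to 0.20. This change was -0.14 after quantile and -0.12 after cyclic loess normalization. A far dimmer second probe set had 98.0, 144 and 131 in the controls and 70.8, 87.2 and 87.7 in the knockouts, a change of -0.51 (adjusted p = 0.304). The 2 probe sets of this gene thus gave different pictures. Slc25a31, the testis form of the ADP/ATP carrier, was at background, with values between 5.21 and 21.5.

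The ATP-magnesium/phosphate carriers set the size of the adenine nucleotide pool of the matrix, and most of them are switched by calcium. Slc25a24 had 2294, 2218 and 2250 in the controls and 2692, 2526 and 2898 in the knockouts. All knockout values were higher, by a log2 change of 0.26 ± 0.10 (SE, 95% interval 0.02 to 0.50, adjusted p = 0.370). The change of Slc25a24 was 0.17 after quantile and 0.19 after cyclic loess normalization. Its second probe set overlapped between the groups and had a change of 0.02. Slc25a25 had 149, 88.7 and 125 in the controls and 71.5, 72.7 and 123 in the knockouts, a change of -0.39 ± 0.25 (adjusted p = 0.567), with knockout mouse 3 among the control values. Slc25a23 had 53.3, 45.8 and 46.0 in the controls and 32.8, 44.0 and 42.5 in the knockouts. These did not overlap, but the values nearest to each other were 45.8 and 44.0. Slc25a23 lay near background, as every knockout value was below 44.3, the highest single value of the Y-linked genes. Slc25a41, a form without the calcium-binding part, had 14.8, 15.2 and 13.9 in the controls and 29.5, 17.2 and 18.1 in the knockouts, all at background.

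The promoters of both ADP/ATP carriers are shown because these paralogs gave the one pair of carriers whose ratio separated the groups, and that of Slc25a40, the glutathione carrier, because, of 6 members with groups apart and a promoter in the RefSeq table, it alone held the BCL11A motif. The stretches run from 250 bases before to 20 after the annotated start, from RefSeq (GRCm38.p6). Capitals mark the BCL11A motif TGACCA and the form AGATAA of the GATA motif on either strand. Other forms of the GATA motif were not searched, such as AGATAG, which the Slc25a4 stretch holds unmarked. The stretches lie at chr8:46211043-46211312 (minus strand) for Slc25a4, chrX:36795347-36795616 (plus strand) for Slc25a5 and chr5:8422588-8422857 (plus strand) for Slc25a40.
Slc25a4: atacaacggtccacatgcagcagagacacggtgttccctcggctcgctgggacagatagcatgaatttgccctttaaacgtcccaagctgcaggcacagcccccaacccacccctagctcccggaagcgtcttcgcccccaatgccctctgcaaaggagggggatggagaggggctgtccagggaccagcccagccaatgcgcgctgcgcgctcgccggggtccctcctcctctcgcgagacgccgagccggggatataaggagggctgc
Slc25a5: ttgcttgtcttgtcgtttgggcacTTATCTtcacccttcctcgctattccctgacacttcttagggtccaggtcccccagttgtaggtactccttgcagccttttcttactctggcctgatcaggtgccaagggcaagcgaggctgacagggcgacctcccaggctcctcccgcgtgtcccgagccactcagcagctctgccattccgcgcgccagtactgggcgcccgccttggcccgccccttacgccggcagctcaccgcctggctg
Slc25a40: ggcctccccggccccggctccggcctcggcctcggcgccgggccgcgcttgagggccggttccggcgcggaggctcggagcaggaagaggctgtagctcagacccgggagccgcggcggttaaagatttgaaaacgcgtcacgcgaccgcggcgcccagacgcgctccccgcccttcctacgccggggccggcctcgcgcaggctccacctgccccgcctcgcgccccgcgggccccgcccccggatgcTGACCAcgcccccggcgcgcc

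A search of the promoter windows of 300 bases, from 250 before to 50 after each start, covered 31 members and 40 start sites, and some windows of one gene overlap. TGACCA, the motif that BCL11A recognises in the human gamma globin promoters, occurred on either strand in 9 of the 40 windows (22.5%), against 13.6% of all 32851 windows in the table. Those 9 windows belonged to 9 members, Slc25a1, Slc25a10, Slc25a16, Slc25a18, Slc25a30, Slc25a31, Slc25a33, Slc25a40 and Slc25a42, of which 2 had log2 changes above 0 and 7 below, with a median of -0.06. The 22 members without the motif in any window had a median of -0.03, with 9 above 0 and 13 below. In Slc25a40 the match began at position -1 relative to the start. The GATA motif AGATAA occurred in 3 of the 40 windows (7.5%, against 11.2% of all), among them that of Slc25a5, at position -226. No matches overlapped in the windows of the members. A match is only a run of letters and shows no binding.

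**Figure D2:**
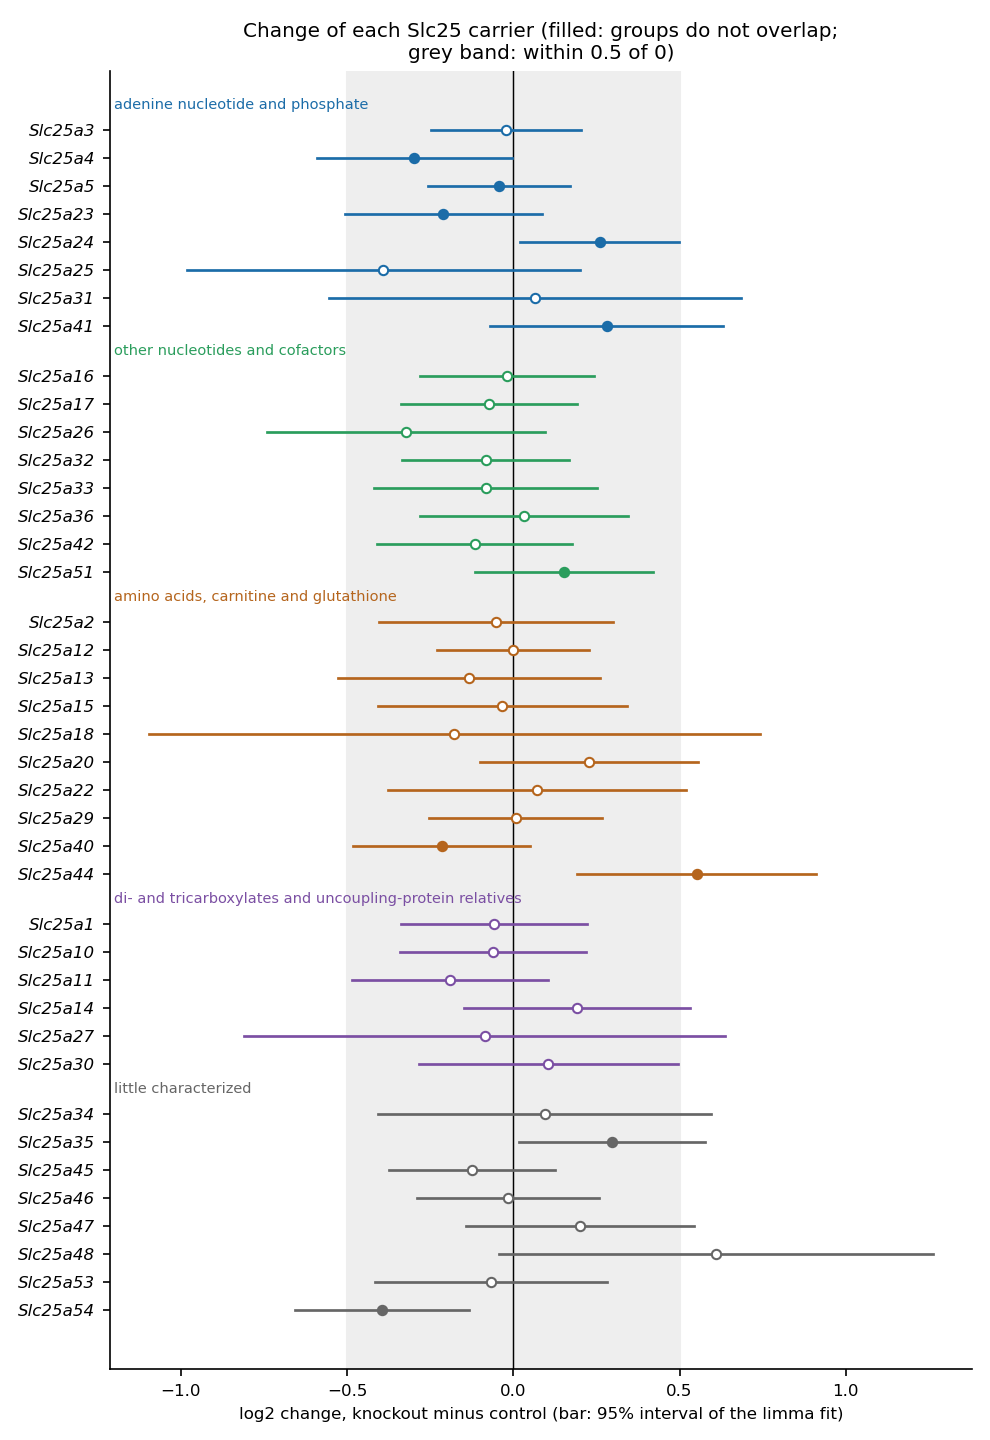
Log2 change of each carrier, knockout minus control, with the 95% interval of the limma fit; filled points are carriers whose groups do not overlap, and the grey band spans changes within 0.5 of 0. Most points lie within the band, Slc25a44 at 0.55 and Slc25a48 at 0.61 lie beyond it, and no carrier passed the test.

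Of the 8 carriers of other nucleotides and cofactors, 1 had groups that did not overlap. That was Slc25a51, the carrier that brings NAD+ into mitochondria. Its brightest probe set had 12161, 10026 and 11689 in the controls and 12766, 12457 and 12282 in the knockouts, a log2 difference of 0.15 ± 0.11 (SE, adjusted p = 0.632). The dimmer probe sets differed more. The second had 5176, 3642 and 4508 against 5469, 6109 and 5897, a change of 0.40 ± 0.15 (adjusted p = 0.360), and the third had 3570, 2353 and 2936 against 3633, 4219 and 4068, a change of 0.44 ± 0.17 (adjusted p = 0.370). For each of the 3, every knockout value was the higher, and control mouse 2 was the lowest. The same mouse had the lowest sum of erythroid markers, 60793 against 68166 and 72569 in the other controls, and its part in the difference was not tested. The change in the brightest probe set was 0.07 without control mouse 2, 0.03 after quantile and 0.05 after cyclic loess normalization.

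The remaining cofactor carriers overlapped between the groups. Slc25a32, which brings folate to the matrix, had 260.1, 302 and 302 in the controls and 267, 267 and 277 in the knockouts (log2 change -0.08, 95% interval -0.33 to 0.17). Slc25a26, which imports S-adenosylmethionine, had 77.2, 75.8 and 96.7 against 79.5, 64.1 and 48.4, a change of -0.32 ± 0.17 (SE, adjusted p = 0.506). Slc25a42, a carrier of coenzyme A, had a change of -0.12, its relative Slc25a16 one of -0.02, and the peroxisomal carrier Slc25a17 one of -0.07. The pyrimidine nucleotide carriers Slc25a33 and Slc25a36 had changes of -0.08 and 0.03.

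Among the 10 carriers of amino acids, carnitine and glutathione, Slc25a44 and Slc25a40 had groups apart. Slc25a40, which takes part in glutathione import, had 251, 270.0 and 247 in the controls and 210.3, 203 and 244 in the knockouts. The knockout values were lower, with 244 close to the lowest control, and the log2 change was -0.21 ± 0.11 (SE, 95% interval -0.48 to 0.05, adjusted p = 0.488). Slc25a20, the carnitine-acylcarnitine carrier of fatty acid oxidation, had 597, 546 and 549 in the controls and 741, 706 and 556 in the knockouts. Knockout mice 1 and 2 were higher than all controls and mouse 3 was not, and the change was 0.23 ± 0.14 (adjusted p = 0.548). Its second probe set had a change of 0.19.

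The aspartate/glutamate carriers, part of the malate-aspartate shuttle that passes reducing power from cytosolic NADH into mitochondria, overlapped. Slc25a12 had 1740, 1758 and 1703 in the controls and 1806, 1756 and 1637 in the knockouts, a log2 change of -0.0019 (95% interval -0.23 to 0.23). Slc25a13 had 80.5, 94.6 and 109 against 79.2, 72.1 and 105, a change of -0.13. The glutamate carriers were Slc25a22, at a change of 0.07 with an interval from -0.38 to 0.52, and Slc25a18, at background. Slc25a15, the ornithine carrier of the urea cycle, had a change of -0.03, its relative Slc25a2 was at background, and Slc25a29, a carrier of basic amino acids, had a change of 0.01.

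None of the 6 carriers of di- and tricarboxylates and relatives of the uncoupling proteins had groups apart. Slc25a11, the oxoglutarate carrier, which also serves the malate-aspartate shuttle, had 1429, 1142 and 1336 in the controls and 1059, 1144 and 1201 in the knockouts. The group means were 1302 ± 146 and 1135 ± 71.6 (SD, n = 3), and the log2 change was -0.19 ± 0.12 (SE, adjusted p = 0.573). It was -0.26 after quantile and -0.24 after cyclic loess normalization. The citrate carrier Slc25a1 and the dicarboxylate carrier Slc25a10 had changes of -0.06 each. Slc25a14 had a change of 0.19 and Slc25a30 one of 0.11. Slc25a27 had 85.1, 84.8 and 75.8 in the controls and 51.7, 60.4 and 135 in the knockouts, where mouse 3 stood above and the other two below all controls. Its 4 probe sets had changes from -0.58 to 0.41, 2 in each direction, and so gave no common direction.

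The 8 little characterized members included 2 with groups apart. Slc25a35 had 41.2, 49.7 and 52.5 in the controls and 57.8, 60.8 and 68.0 in the knockouts, all higher, a log2 change of 0.30 ± 0.12 (SE, adjusted p = 0.381). It was read by 1 probe set and lay near background, as single values of the Y-linked genes reached 44.3. Its change was 0.38 with a pseudocount of 1 and 0.18 with one of 64. Slc25a54 had 8.34, 8.82 and 11.7 against 2.45, 2.99 and 5.0, all below the level of the Y-linked genes, with a change of -0.40 ± 0.11 (adjusted p = 0.252). Slc25a48 had 8.07, 18.3 and 5.25 against 13.0, 24.6 and 36.8, also at background and overlapping. Slc25a46, an outer membrane protein of mitochondrial shape, had a change of -0.02 (95% interval -0.29 to 0.26), Slc25a45 one of -0.12, Slc25a47 one of 0.20 and Slc25a53 one of -0.07. In a dimmer second probe set of Slc25a53 every knockout value was lower. Its change was -0.43 (95% interval -0.84 to -0.01, limma adjusted p = 0.391). Slc25a34 was at background.

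**Figure D3:**
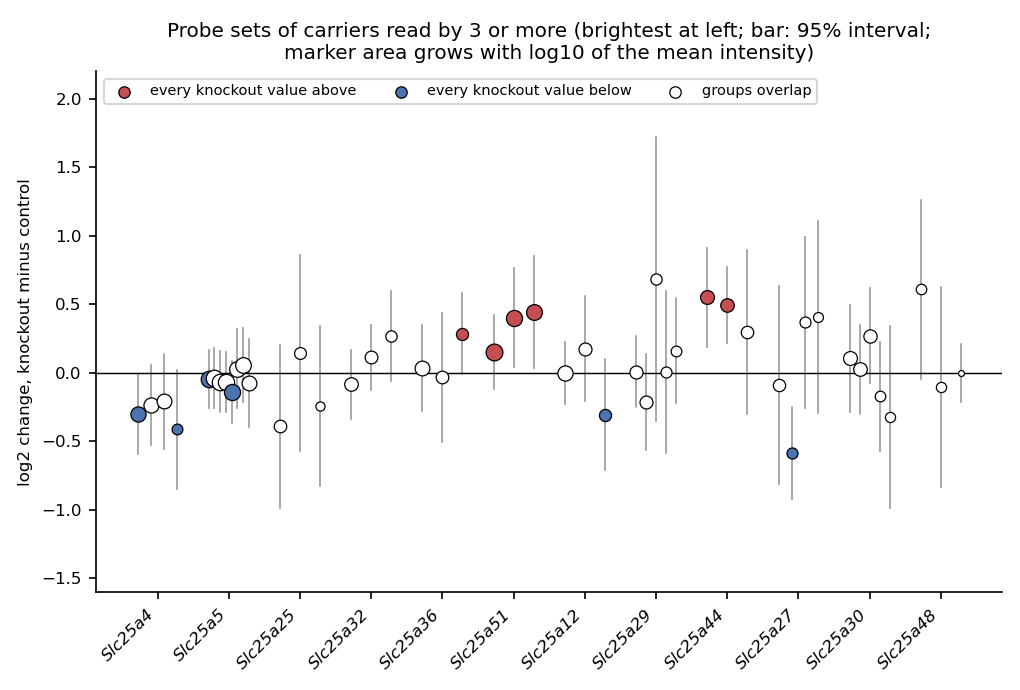
Log2 changes of every probe set of the carriers read by 3 or more, brightest at the left within each gene, with 95% intervals; red and blue mark probe sets whose knockout values all lie above or below the controls. The 3 probe sets of Slc25a51 (0.15 to 0.44) and of Slc25a44 (0.30 to 0.55) lie above 0. The 4 of Slc25a4 (-0.41 to -0.21, the lowest of them at background) lie below it, and those of Slc25a27 on both sides.

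Over all 85 probe sets of the members, groups did not overlap in 9 with the knockout above and 11 with the knockout below, where 19.5% of all probe sets had groups apart in either direction. The median change of the 85 was -0.02. The highest was 0.68, in a dim probe set of Slc25a29, and the lowest -0.58, in one of Slc25a27.

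Related carriers were compared within each array, as the difference of their log2 values, for 11 of 12 listed pairs. For Slc25a5 minus Slc25a4 the differences were 2.35, 2.15 and 2.28 in the controls and 2.39, 2.48 and 2.68 in the knockouts. The knockout values were all higher, by 0.25 on the log2 scale, with a spread of 0.13 (SD) within the groups. The two-sided exact permutation p was 0.1, the smallest that 3 against 3 mice allow, and 0.733 after Benjamini-Hochberg adjustment over the 11 pairs. For Slc25a25 minus Slc25a24 the differences were -3.81, -4.42 and -4.01 against -4.95, -4.84 and -4.39, a change of -0.65 with a spread of 0.30 and overlapping groups (exact permutation p = 0.2, adjusted p = 0.733). For Slc25a11 minus Slc25a10 the change was -0.13 with a spread of 0.07 (exact permutation p = 0.2, adjusted p = 0.733). The other 8 pairs had exact permutation p between 0.3 and 1.

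**Figure D4:**
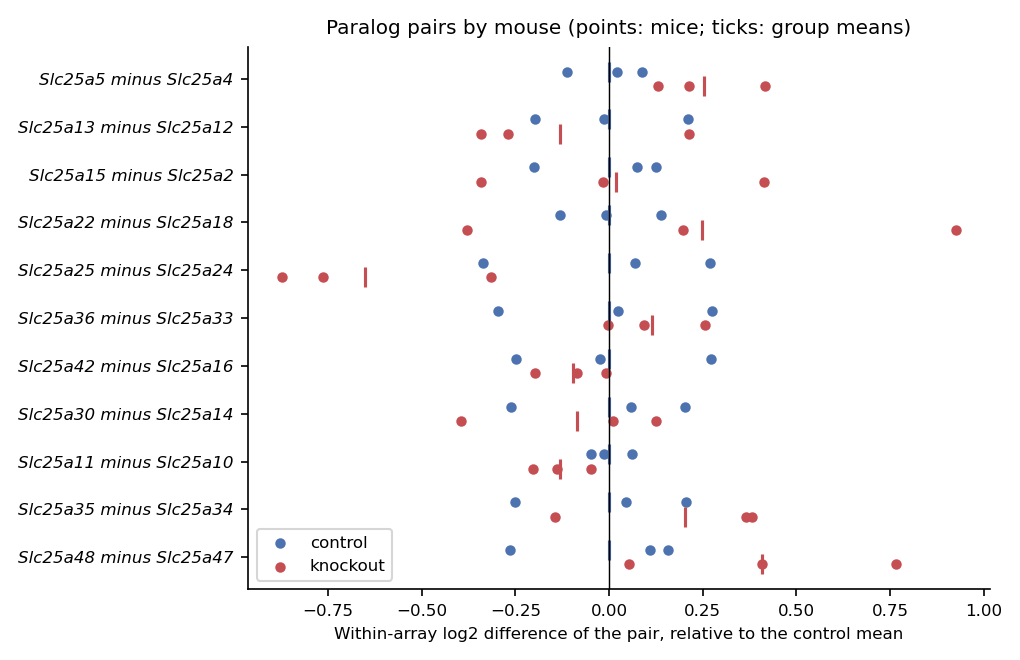
Within-array log2 differences of related carriers for each mouse, set to 0 at the control mean of the pair; points are mice and ticks are group means. The 3 knockout points of Slc25a5 minus Slc25a4 lie right of all its control points, which holds for no other pair in that direction or the opposite one.

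Some members are next to each other in the genome, in the order of protein-coding genes in RefSeq. On chromosome 3 the neighbours Slc25a54 and Slc25a24 had log2 changes of -0.40 and 0.26, on chromosome 17 Slc25a41 and Slc25a23 had 0.28 and -0.21, and on chromosome 12 Slc25a29 and Slc25a47 had 0.01 and 0.20.

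None of the measured genes that work with the carriers passed the test. Of the 4 iron and heme carriers, Slc25a38, which supplies glycine for heme, had 1647, 1131 and 1559 in the controls and 1648, 1994 and 2291 in the knockouts, groups that only just did not overlap, with a log2 change of 0.45 ± 0.19 (SE, adjusted p = 0.410). Without control mouse 2 the change of Slc25a38 was 0.29. Slc25a37, the main iron importer of erythroid mitochondria, had a change of 0.15 (0.02 without control mouse 2 and 0.04 after cyclic loess normalization) and Slc25a39 one of -0.08, both overlapping. Of 4 measured family members with other names, Mtch2, an outer membrane insertase, had 1425, 1371 and 1337 against 1610.3, 1602 and 1485, a change of 0.18 ± 0.10 (adjusted p = 0.495), which was 0.11 after quantile normalization. Ucp1 was at background, with group means of 9.53 and 15.7 that overlapped in their values, and its change of 0.32 was 0.77 with a pseudocount of 1 and 0.12 with one of 64. Ucp3 had a change of -0.18 and overlapped.

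Vdac3, a channel of the outer membrane, had 4170, 4082 and 4328 in the controls and 4979, 5078 and 5256 in the knockouts. The groups did not overlap, with a log2 change of 0.28 ± 0.09 (SE, adjusted p = 0.313, and adjusted p = 0.0233 with an intensity trend and robust moderation). The change of Vdac3 was 0.16 after quantile (adjusted p = 0.503) and 0.20 after cyclic loess normalization (adjusted p = 0.441). Vdac2 had a change of -0.03, and Mpc1, a subunit of the mitochondrial pyruvate carrier, one of -0.14. After quantile normalization the changes of Vdac2 and Mpc1 were -0.14 and -0.215. Of 9 genes of the machinery that inserts carriers into the inner membrane, 4 had changes above 0 and 5 below. Among them were Timm29 (0.25 ± 0.11), Timm9 (-0.32 ± 0.17) and Timm13 (-0.16 ± 0.09).

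Of the 6 enzymes of the malate-aspartate and glycerol phosphate shuttles, Got1, the cytosolic aspartate aminotransferase, had 314, 310 and 282 in the controls and 253, 262 and 213 in the knockouts, a log2 change of -0.30 ± 0.12 (SE, adjusted p = 0.375). Its mitochondrial counterpart Got2 had a change of -0.12, also without overlap, and Mdh1, the cytosolic malate dehydrogenase, one of -0.06. After quantile normalization the changes of Got2 and Mdh1 were -0.19 and -0.15. Of 7 measured genes of one-carbon metabolism, Mthfd1 had a change of -0.24, Mthfd2 one of 0.22 and Mthfd2l one of -0.17. Of 10 genes of mitochondrial DNA and its nucleotides, Cmpk2, a mitochondrial nucleotide kinase, had 1894, 2120 and 1769 against 3345, 2497 and 3273, a change of 0.64 ± 0.15 (adjusted p = 0.209, and 0.00510 with the trend and robust moderation). Testing just the 22518 brightest probe sets gave Cmpk2 an adjusted p of 0.0464 (limma). Polg2, the accessory subunit of the mitochondrial DNA polymerase, had a change of 0.38 and the helicase Twnk one of -0.21.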

How the data were processed

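Total RNA of sorted erythroid progenitors from 6 mice was labelled as biotinylated cRNA and hybridised to Affymetrix arrays, per the labels' protocols. The authors deposited 1 intensity on a linear scale for each of 45037 probe sets and array; no label says how probes were summarised, corrected for background or scaled, and there were no detection calls. Between 775 and 874 values of each array were exactly 1, so changes of dim probe sets depend on how low values were treated. The platform annotation gave 34945 probe sets a single symbol.

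Values were taken as log2(intensity + 16), which understates changes of dim probe sets, and tested in R 4.3.3 with the lmFit and eBayes functions of limma 3.58.1 (two-sided, no trend), adjusted over all probe sets. SDs are between the 3 mice of a group, on linear intensities. The number of mice limits the precision. The fit was tested on simulated data. Some members of the family were not analysed here. Every member may be named; values per array are given for those with groups apart and for up to 3 of each role by p, and related genes for up to 3 per list. The members, lists, alternatives and tests were chosen with earlier results of these data known.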

Additional observations from a re-analysis of the deposited data

How the results depend on the processing

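No carrier passed the threshold in 16 of the 17 alternatives run for the family, among them quantile, median and cyclic loess normalization, array weights and averaging the probe sets of each gene, and at an unadjusted p under 0.05 limma counted between 2 and 6 carriers over all 17. The brightest 50% of probe sets held 31 of the carriers, and the probe sets with no value of exactly 1 held 39. The exception was an intensity trend with robust moderation, which called 1, Slc25a44 (adjusted p = 0.0300, against a range of 0.0664 to 0.454 under its other alternatives). The family's median stayed between -0.07 and 0.0049, and all genes' medians between -0.02 and 0.02. The count of called probe sets was 66, and moved to 38 with a pseudocount of 1, 558 with a pseudocount of 64, 853 in the brightest 50% of probe sets, 1445 with the trend and robust moderation and 27 to 41 on leaving out each mouse; the share that rose was 95.5%, and 83% and 83.5% in the brightest and the trend settings. The replicate numbers did not pair the mice (same-number correlations of -0.0345, -0.0141 and -0.0402), and with the number as a block 14 probe sets and 0 carriers were called (lowest adjusted p = 0.436). The pair difference of Slc25a48 minus Slc25a47, 0.41, was 0.99 with a pseudocount of 1 and 0.098 with one of 64. Slc25a48, at background, had a change of 0.61 that was 1.21 and 0.25 with these pseudocounts. Slc25a47 had one of 0.20 that was 0.22 and 0.15. No carrier reversed past the threshold, but 19 of the 40, none with a change over 0.18 in size, changed sign under at least 1 of the 17 alternatives. Slc25a17, Slc25a30 and Slc25a32 did so only when the probe sets of each gene were averaged. Slc25a10, Slc25a27 and Slc25a46 did so there and under other alternatives too. The 7 dim members are limited by their signal over background.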
